A study of Rattus norvegicus with 11 samples.

Results

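Mitosis and kinetochore genes form a list of 44 rat genes whose products drive entry into mitosis, assemble the kinetochore and spindle, separate the chromosomes and divide the cell. A probe belonged to the list when its gene symbol, current or earlier, was one of the 44 names, and where a gene had several probes the one brightest on average was taken. Of the 44 genes 40 had a probe, among 16898 named genes on the array, and the names Spc24, Anln, Ect2 and Mki67 matched none. A filter on dim probes kept 38 of the 40, among 11060 genes kept in all, and the motor Kif4a and the hyaluronan receptor Hmmr fell below it, so tests cover 38 genes and levels cover 40.

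The arrays measured messenger RNA of rat cells, per the labels, with 1-colour Agilent arrays, and values are given as log2 intensity, on which a step of 1 is 2-fold. The recipient lines were EC, labelled endothelial cells, and RF, labelled endothelial fibroblasts, each untreated, after exosomes of the pancreatic adenocarcinoma line AS, and after exosomes of ASTspan8, the AS line made to express tetraspanin 8. The labels of the untreated RF array disagree: its title and cell type give RF, by which it was grouped, and its source name gives endothelial cell lines. Its level of the fibroblast marker Thy1, picked after its values were seen, was 6.32, beside 6.27 and 6.32 on the treated RF arrays and 8.88 to 9.29 on the EC arrays. Postn also lay nearer RF: 9.60, beside 8.25 and 9.71 on treated RF and 6.61 to 7.72 on EC. Lum went the other way: 12.91, beside 10.76 and 9.17 on treated RF and 12.26 to 13.18 on EC. So did Dcn: 14.70, beside 12.78 and 13.51 on treated RF and 15.02 to 15.20 on EC. Fibroblast markers thus do not settle which label is right. Further arrays held the RNA of ASTspan8 exosomes themselves and of ASML, which the labels call pancreatic adenocarcinoma, either wild type or after knock-down of CD44. Only EC exposed to ASTspan8 exosomes, and the exosomes themselves, were measured on 2 arrays, 1 titled replicate 1 and 1 with no number, and the other 7 groups had 1 array each. Values of a pair are given with replicate 1 first. All cell lines, controls included, were kept in medium with serum and G418, and the sources used here state neither exosome dose nor time of exposure. The AS line itself and exosomes without tetraspanin 8 are not analysed here, so the exosome RNA was set against ASML, another line.

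Mitosis is started by Cdk1 bound to cyclin A or B, pushed on by the Polo and Aurora kinases, and it turns on the attachment of each chromosome to spindle microtubules at its kinetochore. Until every kinetochore is attached, the spindle checkpoint holds back the anaphase-promoting complex, the ubiquitin ligase that destroys cyclin B and securin and so lets the sister chromatids part. Most of these genes are transcribed late in the cell cycle, and in bulk RNA their level follows the share of dividing cells, so that fewer cells in mitosis and less RNA per mitotic cell cannot be told apart on these arrays.

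On all 7 recipient arrays 10 to 11 of 12 fibroblast markers stood above log2 9 and 1 to 3 of 12 endothelial markers did, in EC as in RF. Among the endothelial markers Pecam1 lay between 6.53 and 7.50 and Cdh5 between 7.87 and 8.36, while Vwf read 10.44, 8.88, 9.90 and 10.24 on the EC arrays (control, AS and the ASTspan8 pair) and Eng 10.09, 9.95, 10.43 and 10.47. Most endothelial markers of the list were thus dim in EC and a few were not, and EC is used here as the label's name only. The median of the 12 fibroblast markers on the RF arrays was 13.95 (control), 12.83 (AS) and 12.31 (ASTspan8), and its part in the results on RF was not tested. The members varied little between duplicates: the within-pair SD over the 40 genes was 0.099 for EC and 0.265 for the exosomes, where Kif20a alone differed by 2.20, against 0.091 and 0.241 over all 11060 genes. Nothing in the labels says whether duplicates came from separate cultures, so p-values measure the spread between these arrays only.

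Promoters of mitotic genes are known, in human and mouse, for a short element named CHR (cell cycle genes homology region), through which MuvB complexes repress and later activate them, and for CCAAT boxes bound by NF-Y. The 150 bases before the start of 6 members are printed here because these genes had the largest differences between the ASTspan8 and AS arrays of RF among the 34 members whose promoter was searched and that had both elements inside that window. They are RefSeq sequence of assembly GRCr8, on the strand of the gene, 5′ to 3′, with both elements in capitals. CHR was taken as TTTGAA or as the variant TTCGAA on either strand, so that the former reads TTCAAA when it lies on the other strand, and a CCAAT box there reads ATTGG.
Top2a promoter, chr10:84473094-84473243, - strand: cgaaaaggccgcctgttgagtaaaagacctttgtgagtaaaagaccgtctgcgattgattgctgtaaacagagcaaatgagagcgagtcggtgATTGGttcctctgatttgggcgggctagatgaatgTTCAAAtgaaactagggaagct
Pttg1 promoter, chr10:28406327-28406476, - strand: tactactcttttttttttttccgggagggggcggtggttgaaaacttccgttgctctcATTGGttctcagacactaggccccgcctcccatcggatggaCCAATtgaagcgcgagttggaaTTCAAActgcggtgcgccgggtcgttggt
Spc25 promoter, chr3:74396719-74396868, - strand: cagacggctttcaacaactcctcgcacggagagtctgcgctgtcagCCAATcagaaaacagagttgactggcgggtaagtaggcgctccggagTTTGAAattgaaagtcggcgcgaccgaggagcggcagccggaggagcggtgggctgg
Ccnb2 promoter, chr8:79981659-79981808, - strand: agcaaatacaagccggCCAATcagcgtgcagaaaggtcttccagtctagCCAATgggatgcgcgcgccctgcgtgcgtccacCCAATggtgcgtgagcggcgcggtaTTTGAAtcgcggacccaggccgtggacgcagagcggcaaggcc
Kif23 promoter, chr8:71320585-71320734, - strand: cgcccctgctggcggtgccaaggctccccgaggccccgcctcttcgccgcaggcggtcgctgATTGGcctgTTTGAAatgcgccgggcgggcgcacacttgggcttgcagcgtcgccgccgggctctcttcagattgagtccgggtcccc
Cdc20 promoter, chr5:137255800-137255949, - strand: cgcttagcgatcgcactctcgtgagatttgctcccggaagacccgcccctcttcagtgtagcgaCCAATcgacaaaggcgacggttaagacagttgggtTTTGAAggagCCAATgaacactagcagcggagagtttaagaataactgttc

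In Ccnb2, which encodes cyclin B2, 3 CCAAT boxes were followed by a CHR at -43 to -38 from the start. In Cdc20 the CHR at -51 to -46 stood between 2 CCAAT boxes, and in Pttg1, which encodes securin, it lay at -29 to -24 on the opposite strand with CCAAT at -51 to -47 and -92 to -88. Top2a, the topoisomerase that untangles sister chromatids, had it at -22 to -17, Spc25 at -57 to -52 and Kif23 at -79 to -74.

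Over the window from 250 bases before to 50 after the start, a promoter was found for 34 of the 40 members, all but Ccna2, Aurkb, Tpx2, Racgap1, Ube2c and Foxm1, and both strands were searched. CHR was in 23 of 34 (67.6%), against 5359 of 27457 rat promoters (19.5%), in 55 of 100 promoters of other mitosis genes and in 5 of 30 (16.7%) of DNA replication and G1/S genes. CCAAT was in 26 of 34 (76.5%), against 37.7% of all promoters, 54.0% of those of other mitosis genes and 66.7% of those of replication and G1/S genes. The GC box GGGCGG was in 25 (73.5%), against 34.9%, 59.0% and 63.3% in the same order, and CHR together with CCAAT in 19 (55.9%), against 7.83%, 32.0% and 13.3%. None of these shares was tested between lists. TTCGAA reads the same on both strands and was counted once for a promoter, and CHR and CCAAT can overlap, as they do in Cdca8. A match is a run of letters, not a binding site, and the sequences carry no value from these arrays.

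**Figure D1:**
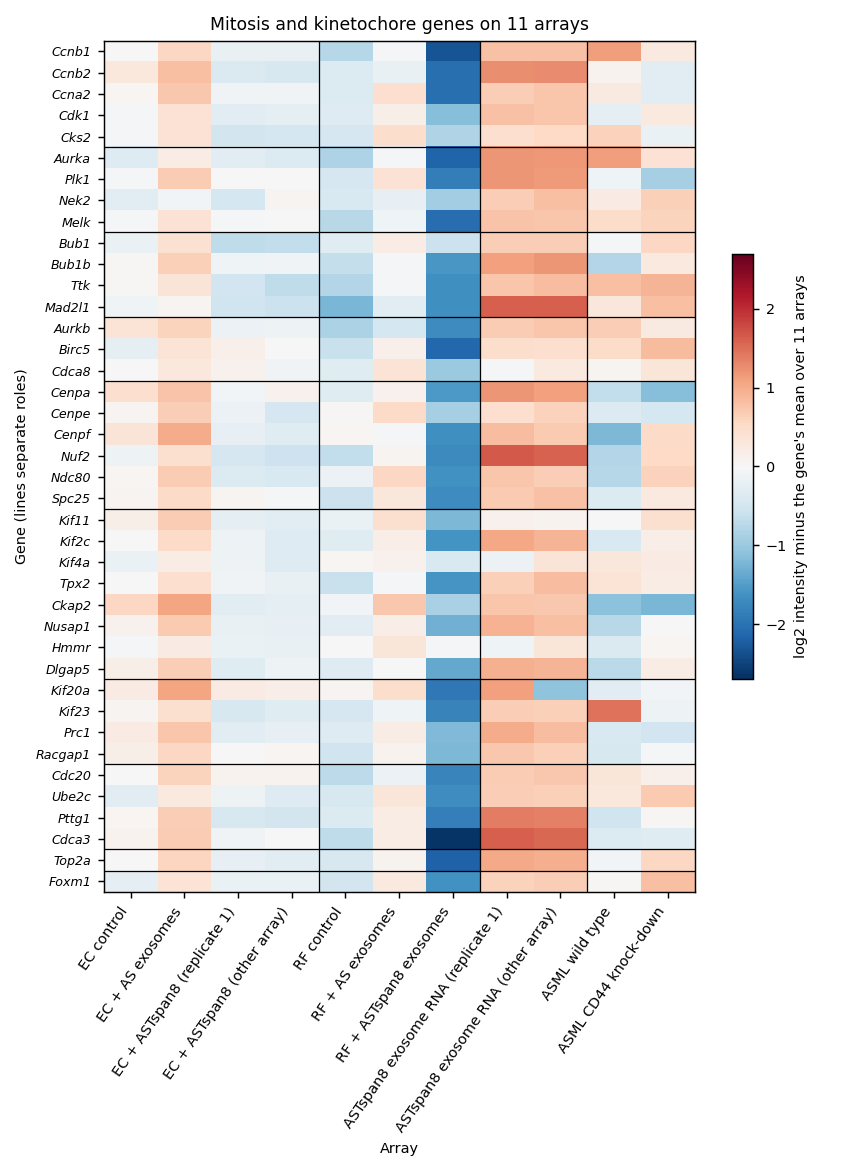
Log2 intensity of the 40 members on the 11 arrays, as the difference from each gene's mean over the arrays, with lines between roles and between recipient, exosome and ASML arrays. The column of RF after ASTspan8 exosomes is the lowest of the 7 recipient arrays in 38 of 40 genes, and the column of EC after AS exosomes is the highest in 35. Such ranks were not counted over all genes.

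Across the recipient lines the members shared their highest and lowest array with few exceptions. They stood above control after AS exosomes in both lines, near or below control after ASTspan8 exosomes in EC, and below it in RF. Their median was 11.10 in EC control, 11.58 after AS exosomes and 10.68 and 10.75 after ASTspan8 exosomes, and 10.56, 11.08 and 9.39 in RF. RF after ASTspan8 exosomes was the lowest of the 7 recipient arrays in 38 of 40 members, all but the checkpoint kinase Bub1 and the dim Hmmr, and the lowest of all 11 arrays in 37, where Ckap2 was lower in ASML with CD44 knock-down. EC after AS exosomes was the highest recipient array in 35 members, and the other 5 were Cks2, Ube2c, Cdca8, Hmmr and Nek2. These ranks were not counted over all genes, so how far they set the members apart was not tested.

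ASTspan8 against AS exosomes in EC asked what tetraspanin 8 on the donor cells adds. Of the 38 members tested 31 were called lower after ASTspan8 exosomes and 0 higher (limma, adjusted p under 0.05, n = 2 against 1). From here on, counts of tested genes said to be lower or higher, or to fall or rise, count those passing it. The difference itself was below 0 in all 38, with a median of -0.77. It ran from -1.33 in Ckap2, a microtubule protein, to -0.13 in the kinase Nek2. Over all 11060 genes 8.52% were called lower and 7.76% higher, with a median difference of -0.01. In 39 of 40 members both ASTspan8 arrays lay below the AS array, and Nek2 was the exception. The call rests on the spread of the 2 duplicated groups: with any 1 of their 4 arrays left out, with only the EC arrays, or with no filter on dim probes, 0 members passed in limma after Benjamini-Hochberg adjustment, while 33 to 35 kept an unadjusted p under 0.05. Other differences between the preparations and tetraspanin 8 itself cannot be told apart.

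In RF the same exosomes were compared on 1 array each, so the difference has no replicate check. The ASTspan8 array was lower than the AS array in 40 of 40 members and at least 2-fold lower in 36, with a median of -1.63, while 4.84% of all genes were at least 2-fold lower and 4.87% higher. The largest differences were those of Cdca3 (-2.85), Ccna2 (-2.49), Kif20a (-2.40) and Ccnb1 (-2.29). Nek2, Bub1, Kif4a and Hmmr were the 4 under 2-fold, between -0.79 and -0.39.

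Whether the exosome difference itself differed between the lines was tested as RF minus EC in the difference of ASTspan8 from AS. It was called negative in 26 of 38 members and positive in 0, with a median of -0.89. Over all genes 13.4% were called negative and 15.1% positive. Cdca3 (-2.11 ± 0.13), Birc5 (-1.97 ± 0.13) and Ccna2 (-1.67 ± 0.11) had the widest gap (each limma adjusted p = 0.0142), and all 4 members of the anaphase group passed. Bub1 had the opposite sign, 0.29 ± 0.10, and did not pass (adjusted p = 0.126). Against control in place of AS the test called 26 members negative and 0 positive, with a median of -0.86, where 17.4% of all genes were called negative and 16.3% positive; both contrasts share the ASTspan8 arrays. With 1 array of the EC pair left out, whichever it was, no named gene was called in either contrast, members included. The median over the members then lay between -0.92 and -0.87. With no filter on dim probes 14 of 40 members passed against AS, where 8.59% of all genes were called in either direction.

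**Figure D2:**
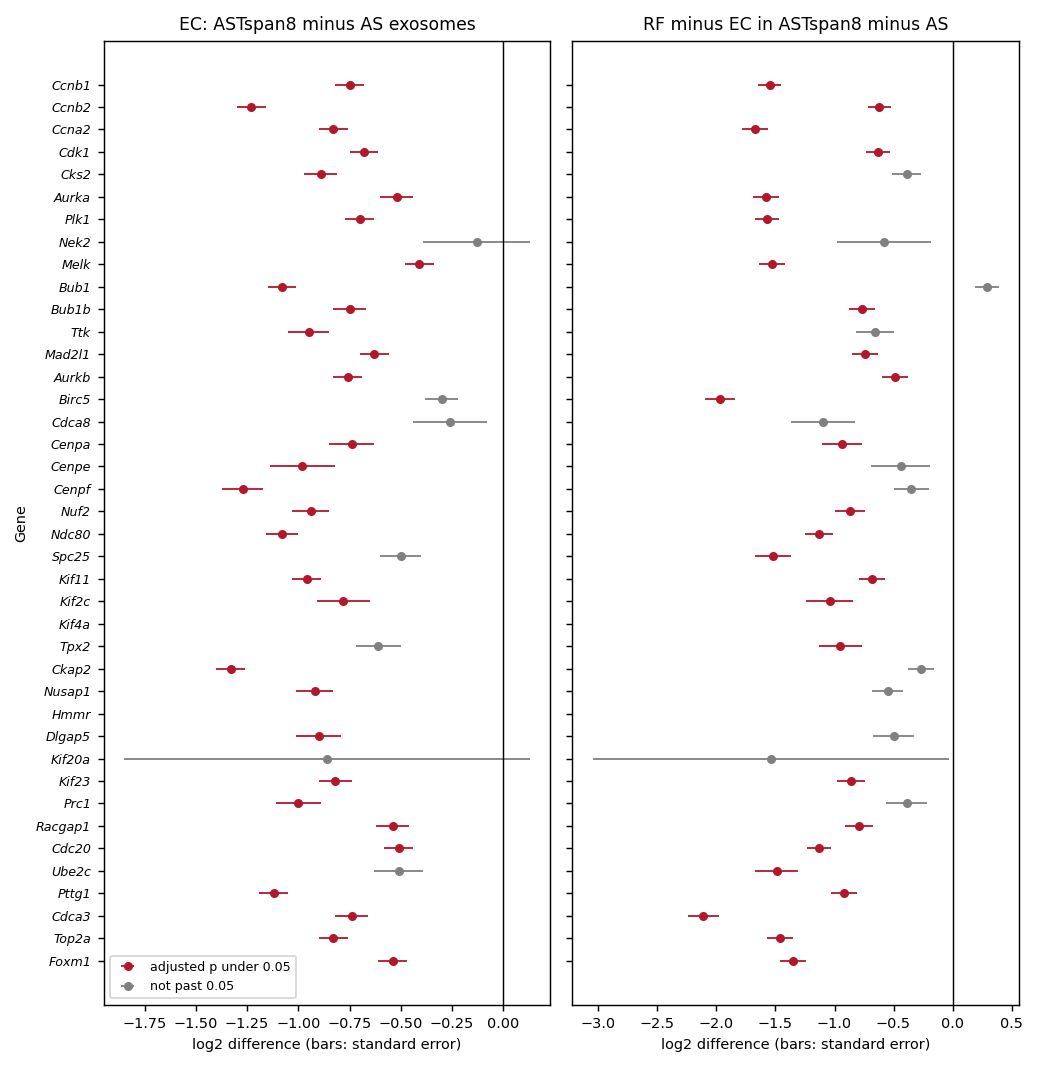
Log2 difference of ASTspan8 from AS exosomes in EC (left) and RF minus EC in that difference (right) for each member, with bars of 1 standard error from limma and red points where the adjusted p is under 0.05. Of 38 tested members 31 are red on the left and 26 on the right, and Kif4a and Hmmr have no point because they fell below the filter.

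The cyclins and Cdk1 were lower after ASTspan8 than after AS exosomes in both lines. Ccnb1, cyclin B1, the partner of Cdk1 at mitotic entry, stood at 11.17 in EC control, 11.71 after AS exosomes and 10.96 and 10.97 after ASTspan8 exosomes, and at 10.39, 11.12 and 8.83 on the RF control, AS and ASTspan8 arrays. Its difference between ASTspan8 and AS exosomes was -0.75 ± 0.07 (adjusted p = 0.0259) in EC, and the gap between lines, RF minus EC, was -1.55 ± 0.10. The order was AS highest and ASTspan8 lowest in both lines, and the RF ASTspan8 array lay apart from the 6 others. Ccnb2, cyclin B2, measured 10.97 in EC control, 11.50 with AS exosomes and 10.29 and 10.26 with ASTspan8 exosomes, against 10.31, 10.49 and 8.65 in RF. Ccna2, the cyclin of S phase and G2, measured 11.78 in EC control, 12.46 with AS exosomes and 11.64 and 11.63 with ASTspan8 exosomes, against 11.35, 12.18 and 9.69 in RF. In EC Ccnb2 had a difference of -1.23 ± 0.07 (adjusted p = 0.023), and its 2 ASTspan8 arrays lay below control and AS alike. For Ccna2 the ASTspan8 arrays of EC were -0.15 from control on this probe and -0.41 on a second one, and the RF array stood further below, at -1.66 and -1.59. Cdk1, the kinase itself, read 14.15, 14.60, 13.92 and 13.93 on the 4 EC arrays in the same order, and 13.86, 14.36 and 13.06 on the 3 RF arrays. Its gap between lines, -0.63 ± 0.10, was near that of Ccnb2, -0.62 ± 0.10, and both ASTspan8 arrays of EC lay below AS and control. All 5 genes of the group, with the Cdk subunit Cks2 (-0.89 ± 0.08), fell in EC, by -0.68 to -1.23, and the differences in RF ran from -1.28 to -2.49.

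Among the mitotic kinases 3 of 4 fell in EC after ASTspan8 against AS exosomes. Plk1, Polo-like kinase 1, which acts from centrosome maturation to cytokinesis, stood at 12.46 in EC control, 13.20 after AS exosomes and 12.50 and 12.51 after ASTspan8 exosomes, and at 12.07, 12.90 and 10.64 on the RF control, AS and ASTspan8 arrays. The ASTspan8 arrays of EC were 0.05 above control on average, and the difference from AS was -0.70 ± 0.07 (adjusted p = 0.027). Aurka, Aurora A, the kinase of centrosomes and spindle poles, measured 11.17 in EC control, 11.72 with AS exosomes and 11.24 and 11.16 with ASTspan8 exosomes, against 10.69, 11.47 and 9.37 in RF. Melk, a kinase of dividing cells, measured 9.99 in EC control, 10.42 with AS exosomes and 9.98 and 10.04 with ASTspan8 exosomes, against 9.27, 9.91 and 7.97 in RF. For both, the ASTspan8 arrays of EC lay near control, while RF after ASTspan8 exosomes lay below every EC array. Nek2, the kinase that parts the centrosomes, read 7.15, 7.38, 6.98 and 7.52 on the 4 EC arrays in the same order, and 7.05, 7.22 and 6.51 on the 3 RF arrays. Nek2 was dim, its 2 EC ASTspan8 arrays differed by 0.54, the widest pair of the list in EC, and its difference of -0.13 ± 0.26 (adjusted p = 0.773) did not pass.

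All 4 spindle checkpoint genes fell in EC. Bub1, the kinase that recruits the checkpoint to kinetochores, stood at 11.17 in EC control, 11.76 after AS exosomes and 10.66 and 10.70 after ASTspan8 exosomes, and at 11.03, 11.56 and 10.77 on the RF control, AS and ASTspan8 arrays. Here the lowest recipient arrays were the ASTspan8 pair of EC, not RF, which stood at -0.26 from its control. Bub1b, which encodes BubR1, an inhibitor of Cdc20, measured 9.53 in EC control, 10.15 with AS exosomes and 9.39 and 9.41 with ASTspan8 exosomes, against 8.87, 9.46 and 7.94 in RF. Mad2l1, the other Cdc20 inhibitor Mad2, measured 10.96 in EC control, 11.15 with AS exosomes and 10.55 and 10.50 with ASTspan8 exosomes, against 9.86, 10.80 and 9.44 in RF. The gap between lines passed for both (-0.77 ± 0.11 and -0.74 ± 0.11). Ttk, the kinase Mps1 at the top of the checkpoint, read 10.42, 10.75, 9.88 and 9.72 on the 4 EC arrays in the same order, and 9.61, 10.36 and 8.75 on the 3 RF arrays. In EC the difference of Ttk from AS was -0.95 ± 0.10 (adjusted p = 0.0287), and the gap between lines missed the threshold at -0.66 ± 0.16 (adjusted p = 0.0558).

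Of the chromosomal passenger genes, which correct wrong attachments, 1 of 3 passed as lower in EC, though all 3 differences from AS were below 0. Aurkb, Aurora B, the kinase of the complex, stood at 9.71 in EC control, 9.95 after AS exosomes and 9.19 and 9.20 after ASTspan8 exosomes, and at 8.50, 8.88 and 7.64 on the RF control, AS and ASTspan8 arrays. Its difference was -0.76 ± 0.07 (adjusted p = 0.0259) from AS and -0.52 ± 0.07 (adjusted p = 0.0241) from control. Birc5, survivin, measured 11.56 in EC control, 12.17 with AS exosomes and 11.93 and 11.82 with ASTspan8 exosomes, against 11.21, 11.95 and 9.69 in RF. For survivin both EC arrays after ASTspan8 exosomes lay above control, by 0.32 ± 0.08 on average (adjusted p = 0.0698), and below AS by a difference that did not pass (-0.30 ± 0.08, adjusted p = 0.0932). Cdca8, borealin, the scaffold, read 8.10, 8.37, 8.22 and 8.00 on the 4 EC arrays in the same order, and 7.77, 8.46 and 7.10 on the 3 RF arrays. Borealin was dim, its EC arrays after ASTspan8 exosomes spanned the control value, and neither test passed for it.

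At the kinetochore 5 of 6 genes fell in EC and all 6 were at least 2-fold lower in RF. Ndc80, the microtubule-binding subunit of the Ndc80 complex, stood at 11.81 in EC control, 12.44 after AS exosomes and 11.38 and 11.34 after ASTspan8 exosomes, and at 11.60, 12.32 and 10.11 on the RF control, AS and ASTspan8 arrays. Nuf2, its partner, measured 10.52 in EC control, 11.09 with AS exosomes and 10.21 and 10.10 with ASTspan8 exosomes, against 10.00, 10.74 and 8.94 in RF. In both, the EC ASTspan8 pair lay below control and AS, and the ASTspan8 array of RF below all EC arrays. Spc25, the subunit on the chromosome side of the complex, measured 11.33 in EC control, 11.77 with AS exosomes and 11.34 and 11.21 with ASTspan8 exosomes, against 10.68, 11.57 and 9.56 in RF. Spc25 stayed near control in EC and its difference from AS just missed the threshold (-0.50 ± 0.10, adjusted p = 0.0517), while the gap between lines passed (-1.52 ± 0.15). Cenpa, the histone H3 variant that marks centromeres, read 9.12, 9.43, 8.60 and 8.79 on the 4 EC arrays in the same order, and 8.35, 8.78 and 7.11 on the 3 RF arrays. Cenpf, a large protein of the outer kinetochore, read 9.83, 10.48, 9.26 and 9.16 on the 4 EC arrays in the same order, and 9.53, 9.46 and 7.84 on the 3 RF arrays. In EC the differences were -0.74 ± 0.11 for Cenpa and -1.27 ± 0.10 for Cenpf on its brighter probe, and -0.98 ± 0.16 for the motor Cenpe, whose recipient arrays ran from 6.87 to 8.43. A second Cenpf probe gave -0.31 from AS and 0.59 from control, where the brighter gave -1.27 and -0.62, so the direction against control depends on the probe, while both put the RF ASTspan8 array below AS, by -2.23 and -1.62.

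Of the spindle motors and microtubule proteins 5 of 6 tested genes fell in EC. Ckap2, a microtubule stabiliser, stood at 13.07 in EC control, 13.56 after AS exosomes and 12.21 and 12.25 after ASTspan8 exosomes, and at 12.42, 13.23 and 11.63 on the RF control, AS and ASTspan8 arrays. It had the largest difference of the list in EC, -1.33 ± 0.07 (adjusted p = 0.023) from AS and -0.84 ± 0.07 (adjusted p = 0.0174) from control, and a second probe gave -1.19 and -0.73. Kif11, the motor that pushes spindle poles apart, measured 10.77 in EC control, 11.31 with AS exosomes and 10.38 and 10.33 with ASTspan8 exosomes, against 10.43, 11.04 and 9.41 in RF. Kif2c, the microtubule depolymerase MCAK, measured 8.87 in EC control, 9.41 with AS exosomes and 8.74 and 8.53 with ASTspan8 exosomes, against 8.55, 9.07 and 7.26 in RF. For both genes each ASTspan8 array of EC lay below the AS array. Tpx2, the activator of Aurora A on spindles, read 9.77, 10.23, 9.68 and 9.57 on the 4 EC arrays in the same order, and 9.18, 9.73 and 8.18 on the 3 RF arrays. The Tpx2 difference of -0.61 ± 0.11 was not under the threshold (adjusted p = 0.05), and Nusap1 (-0.92 ± 0.09) and Dlgap5 (-0.90 ± 0.11), which bundle spindle microtubules, fell. Kif4a and Hmmr read 6.27 to 7.15 on the recipient arrays, close to the floor of 5.96, and cannot show a wide difference.

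Cytokinesis genes fell in 3 of 4 cases in EC. Prc1, which bundles the microtubules of the midzone, stood at 11.58 in EC control, 12.10 after AS exosomes and 11.06 and 11.14 after ASTspan8 exosomes, and at 11.02, 11.55 and 10.16 on the RF control, AS and ASTspan8 arrays. A second Prc1 probe gave -0.35 from AS in EC and -1.53 in RF, against -1.0 and -1.39 on the brighter. Kif23, the motor of the centralspindlin complex, measured 11.22 in EC control, 11.57 with AS exosomes and 10.70 and 10.80 with ASTspan8 exosomes, against 10.68, 11.02 and 9.34 in RF. Racgap1, its partner, measured 10.78 in EC control, 11.19 with AS exosomes and 10.63 and 10.68 with ASTspan8 exosomes, against 10.08, 10.73 and 9.41 in RF. Kif23 lay below control after ASTspan8 exosomes in EC and the Racgap1 difference of -0.13 ± 0.08 did not pass. Kif20a, a motor of the midzone, read 12.13, 12.98, 12.14 and 12.10 on the 4 EC arrays in the same order, and 11.98, 12.39 and 9.99 on the 3 RF arrays. Kif20a differed by -2.40 between ASTspan8 and AS exosomes in RF, yet in EC its test had a standard error of 0.99, which comes from the exosome pair at 13.02 and 10.82, not from EC, where the pair read 12.14 and 12.10.

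All 4 genes of anaphase and mitotic exit passed the test of the gap between lines, and 3 of 4 fell in EC against AS exosomes. Cdca3, a cell cycle protein tied in frog to the breakdown of the kinase Wee1, stood at 13.09 in EC control, 13.68 after AS exosomes and 12.89 and 12.99 after ASTspan8 exosomes, and at 12.31, 13.19 and 10.34 on the RF control, AS and ASTspan8 arrays. It lay at control in EC after ASTspan8 exosomes (-0.15 ± 0.08, adjusted p = 0.276) and was -1.97 from control in RF. Cdc20, the activator of the anaphase-promoting complex, measured 11.95 in EC control, 12.55 with AS exosomes and 12.04 and 12.05 with ASTspan8 exosomes, against 11.25, 11.79 and 10.16 in RF. Ube2c, its ubiquitin-conjugating enzyme, measured 11.03 in EC control, 11.59 with AS exosomes and 11.19 and 10.97 with ASTspan8 exosomes, against 10.90, 11.65 and 9.65 in RF. Both stood near control in EC (0.10 ± 0.07 and 0.05 ± 0.12, neither passing) and the RF array after ASTspan8 exosomes lay below all EC arrays. Pttg1, securin, which keeps separase inactive, read 14.01, 14.62, 13.53 and 13.47 on the 4 EC arrays in the same order, and 13.58, 14.16 and 12.12 on the 3 RF arrays. Securin fell in EC against both AS (-1.12 ± 0.07) and control (-0.51 ± 0.07), and the gap between lines passed at -0.92 ± 0.11.

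Top2a, the topoisomerase that decatenates chromosomes, stood at 11.36 in EC control, 11.95 after AS exosomes and 11.15 and 11.10 after ASTspan8 exosomes, and at 10.95, 11.47 and 9.19 on the RF control, AS and ASTspan8 arrays. In EC its difference was -0.83 ± 0.07 (adjusted p = 0.0259) from AS, and a second probe gave -0.29, and 0.50 from control where the brighter gave -0.24. Foxm1, the transcription factor that activates many genes of mitosis, measured 10.19 in EC control, 10.83 with AS exosomes and 10.29 and 10.29 with ASTspan8 exosomes, against 9.97, 10.72 and 8.83 in RF. Foxm1 differed from AS by -0.54 ± 0.07 (adjusted p = 0.0315) in EC and by -1.89 in RF, and a dimmer probe gave -0.20 and -0.68. Against EC control the brighter and the dimmer probe had opposite signs in 4 of the 9 members with 2 probes, Top2a, Cenpf, Prc1 (-0.48 and 0.22) and Foxm1 (0.10 and -0.02), while both probes of each of the 9 averaged lower than AS in EC. In RF the ASTspan8 array was below AS on both probes in 8 of these 9, and the second probe of Bub1 read 0.04.

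**Figure D3:**
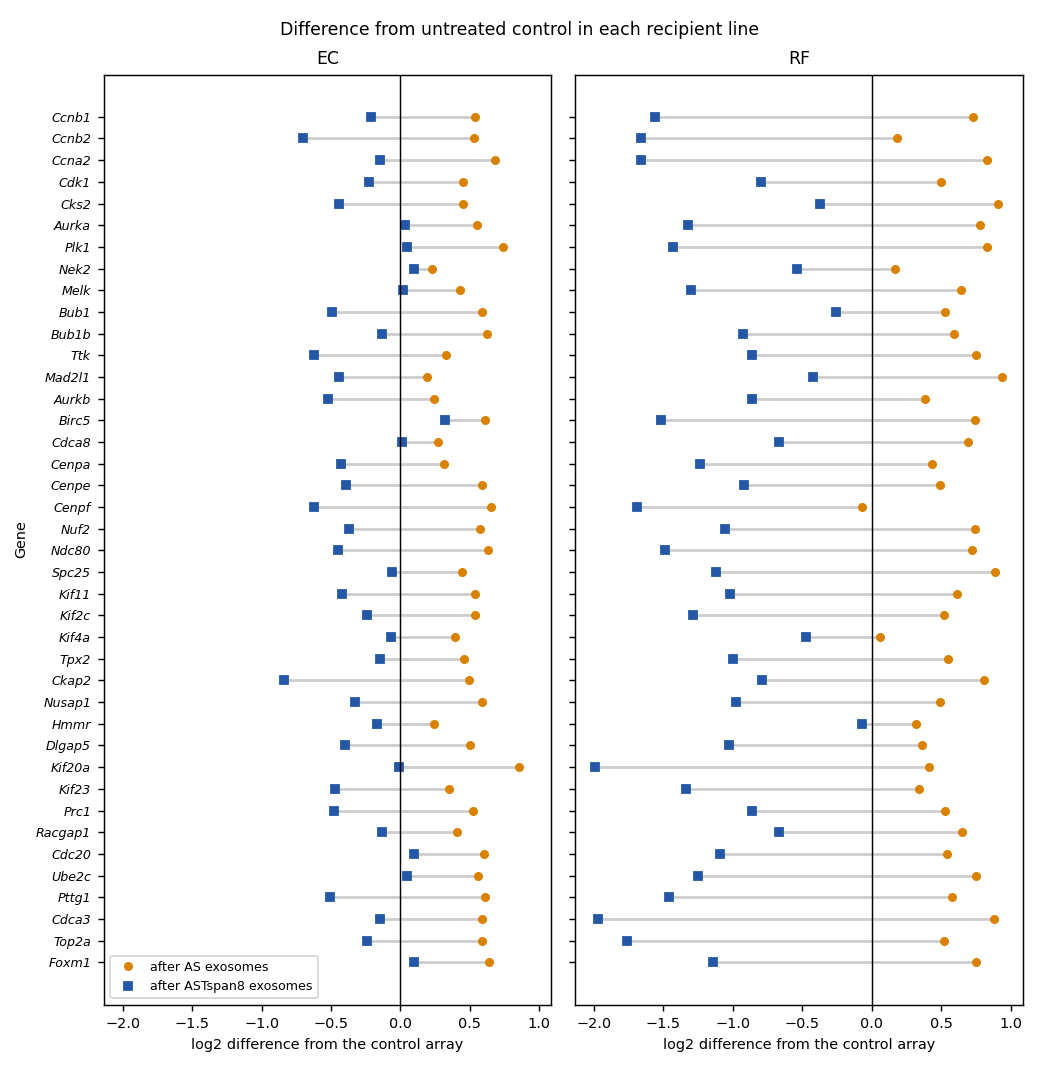
Log2 difference of each member from the untreated control array of its line, after AS exosomes (circles) and ASTspan8 exosomes (squares, for EC the mean of 2 arrays). Circles lie above 0 in 40 of 40 members in EC and 39 in RF; squares lie below 0 in 40 of 40 in RF and on both sides of 0 in EC.

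AS exosomes against control, 1 array each, put 40 of 40 members higher in EC and 39 in RF, with medians of 0.54 and 0.59. The exception was Cenpf in RF (-0.07, with 0.76 on its other probe). The share of all genes higher at any size is not given here, so these counts cannot be set against it. No member reached 2-fold in either line, where 0.127% of all genes were at least 2-fold higher and 1.13% lower in EC, and 1.0% and 1.17% in RF. The largest were Kif20a (0.85) in EC and Mad2l1 (0.94) in RF. Averaged over both lines, the difference of AS from control had a median of 0.56 and 0 members passed in either direction (limma, 7 arrays), with 0.0% of all genes higher and 0.0% lower and 11 members at an unadjusted p under 0.05.

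Against control, members after ASTspan8 exosomes lay on both sides in EC and below it in RF. Over all genes 13.0% were called lower in EC and 13.1% higher (limma, n = 2 against 1). Of 38 members 12 were called lower and 0 higher, with a median of -0.24. They were Ckap2 (-0.84 ± 0.07), Ccnb2 (-0.70 ± 0.07), Ttk (-0.62 ± 0.10), Cenpf, Aurkb, Pttg1, Bub1, Kif23, Ndc80, Cks2, Mad2l1 and Kif11, and of Aurka, Plk1, Nek2 and Melk none passed. These arrays are also those of the comparison with AS exosomes, and both lay below control in 28 of 40 members and above it in 4. The count was 2 of 40 with no filter on dim probes. With a stricter filter 18 of 32 were called lower and 1 higher, survivin. Over all genes 4.4% and 54.5% were called in the same order, in either direction. With 1 array of the EC pair left out, whichever it was, no named gene was called. In RF 40 of 40 members were below control and 24 at least 2-fold, with a median of -1.08, where 5.25% of all genes were at least 2-fold lower and 5.16% higher. Kif20a (-1.99), Cdca3 (-1.97) and Top2a (-1.76) were lowest, and Hmmr (-0.07), Bub1 (-0.26) and Cks2 (-0.37) lay nearest control.

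Averaged over both lines, ASTspan8 against AS exosomes gave a median of -1.14 over the members, and 0 passed after adjustment in the fit of 7 arrays, with 0.0% of all genes lower and 0.0% higher. In that fit the unequal fall in EC and RF counts as residual spread. There 36 of 38 members had an unadjusted p under 0.05 (limma). With all 11 arrays and 9 group means 36 passed (limma, median -1.25), where 32.5% of all genes were called in either direction.

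Between the lines, 5.07% of all genes were called higher in EC than in RF and 3.6% lower over the 7 recipient arrays (limma). Of the 38 members 11 were called higher and 0 lower, with a median of 0.86. They were Aurkb (1.31 ± 0.13, adjusted p = 0.00855), Ccnb2, Cenpa, Bub1b, Mad2l1, Ttk, Cdc20, Racgap1, Dlgap5, Prc1 and Ckap2 (0.53 ± 0.12, adjusted p = 0.0489). The median gap was 0.43 between the controls, 0.35 with AS and 1.38 with ASTspan8 exosomes, and EC was higher in 38, 36 and 38 of 40 members. Without the arrays after ASTspan8 exosomes, a choice made after seeing the data, 0 members passed and the median was 0.45, and 0 passed with 1 array of that EC pair left out, whichever it was. The count was 6 of 32 with a stricter filter and 33 of 38 with all 11 arrays in the fit. Over all genes 7.52% and 46.6% were called in the same order, in either direction, against 8.67% in the reported fit.

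**Figure D4:**
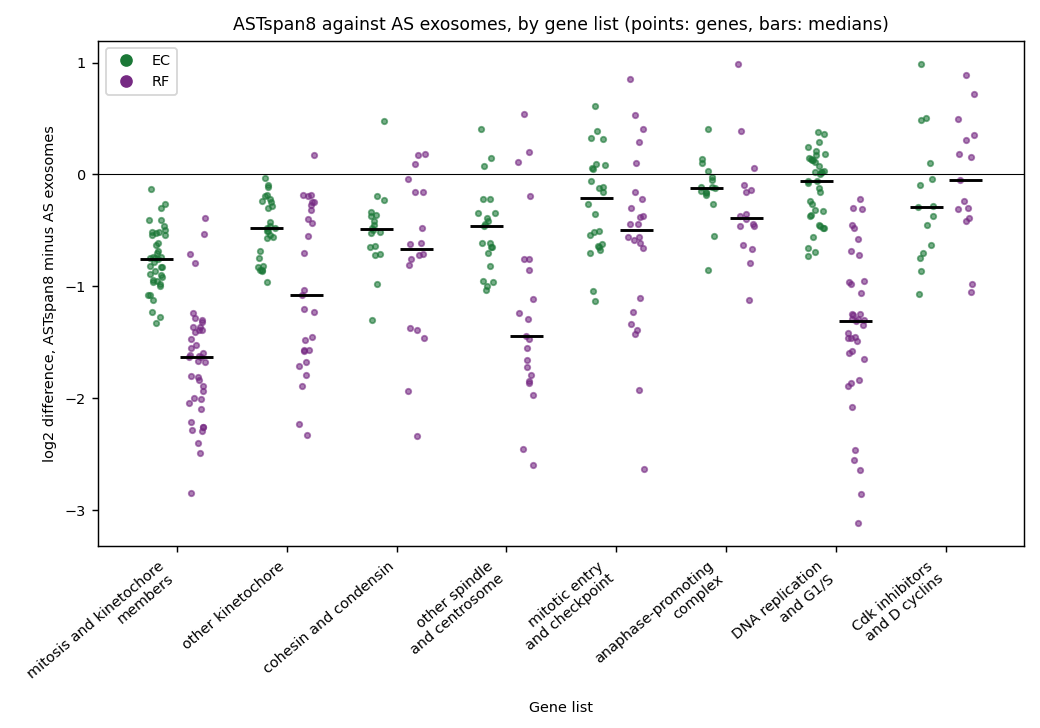
Log2 difference of ASTspan8 from AS exosomes for every gene of the members and of 7 lists from the same pathway, in EC (green) and RF (purple), with bars at the medians. The members lie below 0 in both lines, with a median of -1.63 in RF, and the DNA replication and G1/S list sits near 0 in EC and at -1.31 in RF.

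Other genes of mitosis, 106 on the array in 5 lists, had medians below 0 in both lines. In EC after ASTspan8 against AS exosomes 39 of 99 tested were called lower and 2 higher, with a median of -0.43. In RF 42 of 106 were at least 2-fold lower and 0 higher, with a median of -0.65. Over all genes 8.52% were called lower and 7.76% higher in EC, and 4.84% were at least 2-fold lower and 4.87% higher in RF, against which the counts of these lists and of those in the next paragraph are to be read. With any 1 of the 4 duplicate arrays left out, 0.0% of all genes were called in EC, these lists included. Of other kinetochore genes 14 of 24 fell in EC, such as Ska1 (-0.96 ± 0.09), Cenpc (-0.86 ± 0.11), Knstrn (-0.86 ± 0.08) and Cenpq (-0.86 ± 0.10), and in RF Cenpw (-2.33), Knstrn (-2.23), Kntc1 (-1.89) and Spdl1 (-1.79) were lowest. Of cohesin and condensin genes, which hold and compact chromatids, 9 of 17 fell and 1 rose in EC, led by Smc4 (-1.30 ± 0.07), with Espl1 (-2.34), which encodes separase, and Ncaph (-1.94) lowest in RF. The other spindle and centrosome genes had 11 of 20 lower in EC, Plk4 (-1.04 ± 0.08) first, and a median of -1.44 in RF, where Cep55 (-2.60) and Tacc3 (-2.45) were lowest. Of genes of mitotic entry and its control 4 of 23 fell and 1 rose in EC, with Mastl (-1.14 ± 0.14) and Pbk (-1.05 ± 0.09) lowest, and Mybl2 (-2.63) was lowest in RF. Subunits and regulators of the anaphase-promoting complex had a median of -0.12 in EC, with 1 of 15 lower in EC, the inhibitor Fbxo5 (-0.86 ± 0.11), and a median of -0.39 in RF.

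DNA replication and G1/S genes were near 0 in EC and low in RF. In EC 6 of 37 were called lower after ASTspan8 than after AS exosomes and 0 higher, with a median of -0.06. Pcna (-0.73 ± 0.07), Pola1 (-0.70 ± 0.12) and Tyms (-0.66 ± 0.09) were lowest. In RF 26 of 37 were at least 2-fold lower, with a median of -1.31, and Gins1 (-3.12), Tk1 (-2.86), Cdc45 (-2.64) and Mcm3 (-2.55) were lowest. The gap between lines was called negative in 26 of 37, with a median of -1.41, beside 26 of 38 and -0.89 for the members. Over all genes 13.4% were called negative and 15.1% positive. The limit given above for this contrast, when 1 array of the EC pair was left out, holds here too. The Cdk inhibitor Cdkn1a, or p21, read 13.53 in EC control, 13.98 after AS and 14.97 on both ASTspan8 arrays, and 14.27, 14.42 and 14.92 in RF. Cdkn1a rose in EC against AS (0.99 ± 0.07, adjusted p = 0.0233) and against control (1.44 ± 0.07, adjusted p = 0.0146), the opposite way to the members, and of 15 Cdk inhibitors, D and G cyclins and pocket proteins 2 rose and 5 fell against AS.

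RNA of ASTspan8 exosomes held the members at high levels: the list median was 11.98 and 11.96, above the 10.92 of ASML wild type. An exosome array was the highest of all 11 in 27 of 40 members, a rank that was not counted over all genes. Against ASML wild type 25 of 38 members were called higher and 2 lower, with a median of 0.97 (limma, n = 2 against 1). But over all genes 32.3% were called higher and 35.4% lower. Exosome against cell and one donor line against another cannot be told apart here. Epithelial markers above log2 9 numbered 11 of 11 in ASML wild type and 3 and 2 of 11 in the exosome pair, and the pair read 11.11 and 6.02 for Cd44, so the arrays of the pair also differ from each other; the part of either in the results was not tested. With the first or the second exosome array left out 28 and 26 members were called, 25 and 24 of them higher.

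All 6 kinetochore genes were higher in exosome RNA, by 0.91 to 2.43. Nuf2 gave 12.32 and 12.26 in exosome RNA, 9.86 in ASML wild type and 11.19 with CD44 knock-down. Cenpf gave 10.31 and 10.19 in exosome RNA, 8.28 in ASML wild type and 10.01 with CD44 knock-down. In both, the exosome pair lay above either ASML array, and the knock-down array lay above wild type. Ndc80 read 12.50 and 12.42 in exosomes against 10.98 and 12.37 in the ASML pair. Spc25 read 11.96 and 12.05 in exosomes against 10.89 and 11.53 in the ASML pair. Cenpa read 9.87 and 9.78 in exosomes against 8.01 and 7.53 in the ASML pair. Ndc80 with CD44 knock-down came close to the exosome pair, and Cenpa was lower with knock-down than in wild type. Of the checkpoint genes 3 of 4 were higher. Bub1b gave 10.61 and 10.69 in exosome RNA, 8.72 in ASML wild type and 9.77 with CD44 knock-down. Mad2l1 gave 12.70 and 12.70 in exosome RNA, 11.39 in ASML wild type and 11.90 with CD44 knock-down. Bub1 read 12.02 and 12.01 in exosomes against 11.32 and 11.91 in the ASML pair. Ttk was the exception. Ttk read 11.15 and 11.23 in exosomes against 11.20 and 11.31 in the ASML pair.

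Motors and microtubule proteins were higher in 4 of 6 tested and anaphase genes in 3 of 4. Ckap2 gave 13.26 and 13.22 in exosome RNA, 11.39 in ASML wild type and 11.27 with CD44 knock-down. Kif2c read 9.93 and 9.80 in exosomes against 8.48 and 9.07 in the ASML pair. For Ckap2 the exosome pair stood far above both ASML arrays (1.85 ± 0.07, adjusted p = 0.000317). Kif11 read 10.74 and 10.72 in exosomes against 10.62 and 11.04 in the ASML pair. Tpx2 read 10.42 and 10.60 in exosomes against 10.15 and 9.97 in the ASML pair. Neither of these passed. Pttg1 gave 15.33 and 15.31 in exosome RNA, 13.41 in ASML wild type and 13.98 with CD44 knock-down. Cdca3 read 14.60 and 14.54 in exosomes against 12.62 and 12.67 in the ASML pair. These 2 anaphase genes differed by 1.91 ± 0.07 and 1.95 ± 0.08, near the top of the list. Cdc20 read 12.64 and 12.68 in exosomes against 12.27 and 12.09 in the ASML pair. Ube2c read 12.00 and 11.97 in exosomes against 11.61 and 12.03 in the ASML pair. Cdc20 passed and Ube2c did not (0.38 ± 0.12, adjusted p = 0.0564).

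Chromosomal passenger genes did not differ by more than 0.06, and none passed. Aurkb gave 10.04 and 10.09 in exosome RNA, 10.02 in ASML wild type and 9.60 with CD44 knock-down. Birc5 read 12.28 and 12.26 in exosomes against 12.30 and 12.66 in the ASML pair. Cdca8 read 8.07 and 8.36 in exosomes against 8.16 and 8.42 in the ASML pair. Their standard errors were 0.07, 0.08 and 0.18, and the widest pair was that of Cdca8. Cyclins and kinases were mixed. Ccnb2 gave 11.94 and 11.95 in exosome RNA, 10.77 in ASML wild type and 10.39 with CD44 knock-down. Cdk1 read 14.99 and 14.95 in exosomes against 13.94 and 14.47 in the ASML pair. Ccna2 read 12.39 and 12.47 in exosomes against 11.96 and 11.42 in the ASML pair. These 3 were higher, and cyclin B1 was lower (-0.33 ± 0.07, adjusted p = 0.017). Ccnb1 read 11.95 and 11.96 in exosomes against 12.28 and 11.43 in the ASML pair. The kinase Plk1 was higher by 1.28 ± 0.07, and Aurka did not differ beyond its error (0.05 ± 0.08). Plk1 gave 13.71 and 13.67 in exosome RNA, 12.41 in ASML wild type and 11.62 with CD44 knock-down. Aurka read 12.72 and 12.70 in exosomes against 12.66 and 11.91 in the ASML pair. Melk read 10.79 and 10.78 in exosomes against 10.52 and 10.63 in the ASML pair. Melk passed with a small difference, 0.27 ± 0.07, and Nek2 did not pass. Nek2 read 8.11 and 8.26 in exosomes against 7.68 and 8.10 in the ASML pair.

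Cytokinesis genes went both ways. Prc1 gave 12.37 and 12.19 in exosome RNA, 10.94 in ASML wild type and 10.84 with CD44 knock-down. Racgap1 read 11.35 and 11.26 in exosomes against 10.19 and 10.59 in the ASML pair. Both were higher in exosome RNA. Kif23 read 11.80 and 11.78 in exosomes against 12.60 and 10.99 in the ASML pair. Kif23 was lower by -0.81 ± 0.08 (adjusted p = 0.00242), with its wild-type array the highest of all 11. Kif20a read 13.02 and 10.82 in exosomes against 11.63 and 11.84 in the ASML pair. The Kif20a pair lay on either side of wild type, so no difference could be read from it. Top2a gave 12.40 and 12.36 in exosome RNA, 11.30 in ASML wild type and 11.93 with CD44 knock-down. Foxm1 read 11.08 and 11.13 in exosomes against 10.49 and 11.27 in the ASML pair. Top2a and Foxm1 were higher, by 1.08 ± 0.07 and 0.62 ± 0.07.

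**Figure D5:**
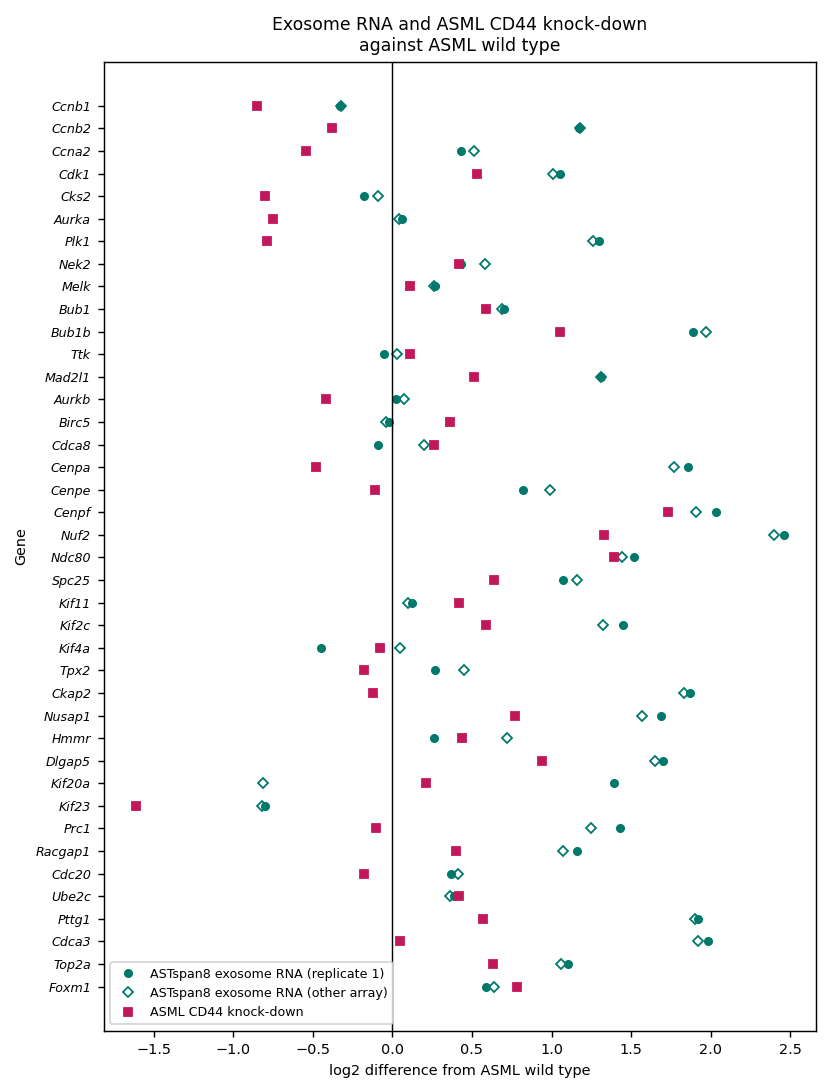
Log2 difference of each member from the ASML wild-type array on both ASTspan8 exosome arrays (circles and diamonds) and on the ASML CD44 knock-down array (squares). Both exosome arrays lie above 0 in 32 of 40 members, the pair falls far apart in Kif20a alone, and the knock-down squares lie on both sides of 0.

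CD44 knock-down in ASML was compared with wild type on 1 array each. Cd44 itself read 13.56 in wild type and 12.30 with knock-down on its brightest probe, while dimmer probes read 8.28 and 8.79, 7.43 and 8.77, and 6.07 and 5.96. Of 40 members 4 were at least 2-fold higher, Cenpf (1.73), Ndc80 (1.39), Nuf2 (1.33) and Bub1b (1.05), and 1 lower, Kif23 (-1.61), with a median of 0.31, while 10.6% of all genes were at least 2-fold higher and 9.01% lower. The share of members at least 2-fold higher was near that of all genes. The 6 kinetochore genes went both ways, with Cenpa (-0.48) and Cenpe (-0.11) lower after knock-down. Ccnb1 (-0.85), Cks2 (-0.80), Plk1 (-0.79) and Aurka (-0.75) lay lower without reaching 2-fold.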

How the data were processed

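Each of 11 rat RNA samples was hybridised to 1 array, and the labels put them in 9 groups. The authors deposited linear intensity values, already normalized between arrays by an unstated method. Array medians lay between 156.5 and 165.4, a range of 0.08 log2, and the highest value was 422913. Background correction and probe summary are not given in the sources used here, and the number of arrays limits the precision.

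From the deposited intensity values, those under 62.25 (the 1st percentile, 5.96 on the log2 scale; 0.816% of values) were set to it, and log2 was taken without further normalization. Probes whose average percentile on the arrays exceeded 50 in 1 group or more were retained: 18619 of 30367 probes. Of all probes 20369 had 1 gene symbol in the platform annotation and 9998 had none. Symbols were updated with RefSeq names of GRCr8: 17237 probes matched by accession, 2569 by symbol, 551 by synonym, and 12 kept their name. The brightest probe stood for a gene.

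Two-sided tests were made by lmFit and eBayes of limma 3.58.1 (R 4.3.3) with Benjamini-Hochberg adjustment over all kept probes and a threshold of 0.05. Comparisons within EC, RF minus EC and exosome RNA against ASML came from a fit of a mean for each of the 9 groups (2 residual degrees of freedom), which takes the spread of the 2 pairs to hold for single arrays too. Averages over both lines and EC against RF came from line plus treatment on the 7 recipient arrays (3 residual degrees of freedom). Where each side had 1 array no test was made, and genes at least 2-fold apart were counted. The code was tested on simulated data. Motifs were searched in RefSeq promoters of GRCr8, whose build is that of the sequence table, not of the arrays.

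The members and the other lists were chosen with earlier results of these data known. Values on every recipient, exosome and ASML array are given, per role, for up to 4 members with the largest difference between recipient arrays, and for Ccnb1, Cdk1, Plk1, Cenpf, Ckap2, Top2a and Foxm1. Of the other lists up to 4 genes with the largest difference were named. Alternatives were quantile normalization, other filters, trend and robust eBayes, averaging the probes of a gene, other arrays in the fit, another fold threshold and each duplicate left out. Leukocyte markers were at or below log2 9 in all but 0 to 2 of 11 genes on every array.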

Additional observations from a re-analysis of the deposited data

Results flagged for a closer look

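The lines were compared in their difference after ASTspan8 exosomes by a test of RF minus EC, in which 26 of 38 members passed for ASTspan8 against AS exosomes and 26 for ASTspan8 exosomes against control (limma, adjusted p under 0.05), each with a lower value in RF. Over all genes 13.4% and 17.4% were called negative and 15.1% and 16.3% positive. When 1 array of the EC pair was dropped, whichever it was, no named gene was called against AS or against control, members included. The 26 values below are RF minus EC in the log2 difference of ASTspan8 from AS exosomes.

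Among the cyclins and Cdk1 they were -1.55 for Ccnb1, -0.62 for Ccnb2, -1.67 for Ccna2 and -0.63 for Cdk1. The mitotic kinases gave -1.58 for Aurka, -1.57 for Plk1 and -1.53 for Melk. Spindle checkpoint genes gave -0.77 for Bub1b and -0.74 for Mad2l1, and the chromosomal passenger genes -0.49 for Aurkb and -1.97 for Birc5. At the kinetochore Cenpa had -0.94, Nuf2 -0.87, Ndc80 -1.13 and Spc25 -1.52.

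Of the motors and microtubule proteins, Kif11 had -0.68, Kif2c -1.04 and Tpx2 -0.95, and of the cytokinesis genes Kif23 had -0.86 and Racgap1 -0.79. Genes of anaphase and mitotic exit gave -1.13 for Cdc20, -1.49 for Ube2c, -0.92 for Pttg1 and -2.11 for Cdca3. Top2a had -1.46 and Foxm1 -1.35. RF rests on 1 array for each condition, and no cause of the difference was tested.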

How the results depend on the processing

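Over 90 pairs of a result and an alternative setting, 65 counts of members stayed within 1.5 times the reported one and 25 did not. Some of the 65 set a count of 0 beside a reported count of 0, where this measure says little. In 3 of these pairs a member was called in the direction opposite to the reported calls. ASTspan8 against AS exosomes in EC called no named gene, members included, with no filter on dim probes or with only the EC arrays. The same held with any 1 duplicate array left out. ASTspan8 exosomes against control in EC called 2 with no filter, 19 of 32 with a filter at the 75th percentile and 20 with trend and robust eBayes (in the latter pair 1 of them, Birc5, was higher), and 0 to 12 with a duplicate left out. Over all genes 4.4% were called with no filter, 54.5% at the 75th percentile and 38.3% with trend and robust eBayes, in either direction. The share was 26.1% in the reported fit, and 0.0% to 27.2% with a duplicate left out. The larger member counts thus came with larger shares of all genes. RF minus EC against AS called 14 with no filter and 0 to 25 with a duplicate left out, and against control 0 to 23. At the 75th percentile Bub1 was called positive in the former. Averaged over both lines, ASTspan8 against AS exosomes called 36 with all 11 arrays, where 32.5% of all genes were called. EC against RF called 6 of 32 with the 75th percentile and 33 of 38 with all 11 arrays, where 7.52% and 46.6% of all genes were called. No member was called with an EC duplicate left out. None was called either without the arrays after ASTspan8 exosomes, a setting chosen after seeing the data. At 1.5-fold 15 members were apart for AS exosomes in EC, 20 in RF and 16 for ASML (11 higher, 5 lower). The share of all genes at 1.5-fold was not counted. Leaving out a duplicate leaves 1 residual degree of freedom fewer, and no other cause was tested. Of the 9 groups 7 have 1 array. No paired analysis was possible because no 2 replicate numbers are shared by the groups compared.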
